A study of Drosophila melanogaster with 6 samples.

Results

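The genes described here are the UDP-glycosyltransferase genes of *Drosophila melanogaster*, measured in the heads of aging flies. Every gene of the count table whose FlyBase symbol begins with Ugt and a digit was taken, which gave 35 genes of 17492 in all. The symbol names the enzyme family and uses no measured value. RNA was sequenced from heads of flies of strain 5905 (w1118) at 2 ages, with 3 samples of 30d flies and 3 samples of 3d flies. The study set these ages against each other to follow how metabolism changes during aging. Both ages carry the same *white* mutation and no other allele or agent is named. The aging protocol used adult males, but the sex of the flies behind the RNA is not stated, and the labels do not say whether the 3 samples of an age came from separate cultures, so the p-values below measure only the spread between these samples.

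UDP-glycosyltransferases are enzymes of the endoplasmic reticulum membrane that move a sugar from a UDP-sugar, in insects mainly UDP-glucose, onto small lipophilic molecules, which makes these molecules more soluble and easier to excrete. They belong to the second phase of detoxification, beside the glutathione S-transferases and sulfotransferases, and often act on products of the cytochrome P450 enzymes. In flies they are known from the gut, the fat body and the excretory organs, and several are known from the antenna, where enzymes of this kind are thought to clear odorants. The substrates of most fly members are not known, and a role is named below only for the few that have one.

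Total counts on genes ranged from 3176380 to 3741860 over the 6 samples. A level is given as CPM, a gene's counts over the library's total scaled to a common size by edgeR's TMM method, and a difference as the log2 fold change of 30d over 3d, from edgeR's quasi-likelihood test, with p-values adjusted by Benjamini-Hochberg for the 8773 genes that had enough counts. A gene is said to have risen or fallen where its adjusted p was under 0.05. Of the genes tested, 30.4% passed in either direction, 14.4% higher and 16.1% lower at 30d. The samples of the 2 ages did not overlap in CPM for 44.8% of them. Markers of head tissues differed as well: 4 of 5 neuron, 3 of 5 glia and all 4 tested muscle markers fell. The remaining neuron marker, *elav*, had a log2 fold change of -0.18. The remaining glia markers, *repo* and *moody*, lay above 0, at 0.17 and 0.13, and none of the remaining markers passed. Neuron markers summed to 2783 to 2943 CPM at 30d, against 3790 to 4553 CPM at 3d, glia markers to 2532 to 2583 CPM at 30d, against 3224 to 3782 CPM at 3d, and muscle markers to 1123 to 1145 CPM at 30d, against 2092 to 3245 CPM at 3d. Photoreceptor markers, as belongs to heads, were the most abundant, at 52454 to 64148 CPM at 30d and 47030 to 55203 CPM at 3d, with 1 of 6 lower and none higher. In whole heads, fewer cells of a type and less RNA per cell cannot be told apart.

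Of the 35 genes, 18 had enough reads for the test, 12 had between 1 and 43 reads over the 6 samples, and 5 had none. The 18 tested genes held 15004 of the family's reads, or 99.2%. At 30d, 7 of the 18 differed from 3d: *Ugt305A1*, *Ugt36A1*, *Ugt36E1* and *Ugt302C1* rose, and *Ugt301D1*, *Ugt36D1* and *Ugt35B1* fell. That is 38.9% of those tested, with 22.2% higher and 16.7% lower, against 30.4%, 14.4% and 16.1% of all genes. The ages did not overlap for 8 of the 18, or 44.4%, against 44.8% of all genes, so by this count the family was close to the background. Of these 8, 5 lay above and 3 below 3d. The median log2 fold change of the 18 was 0.13, against 0.02 over all genes tested, with 12 values above and 6 below 0. With libraries scaled by size alone the median of the 18 was 0.20. Under DESeq2 and without a filter the medians were 0.040 and 0.043, but over the 30 members with any read, so not over the same genes. Only 2 genes past the threshold, *Ugt305A1* and *Ugt301D1*, differed by more than 1 on the log2 scale. The filter decided which genes could enter these counts: *Ugt305A1* and *Ugt37B1* passed it through their 30d samples alone.

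**Figure D1:**
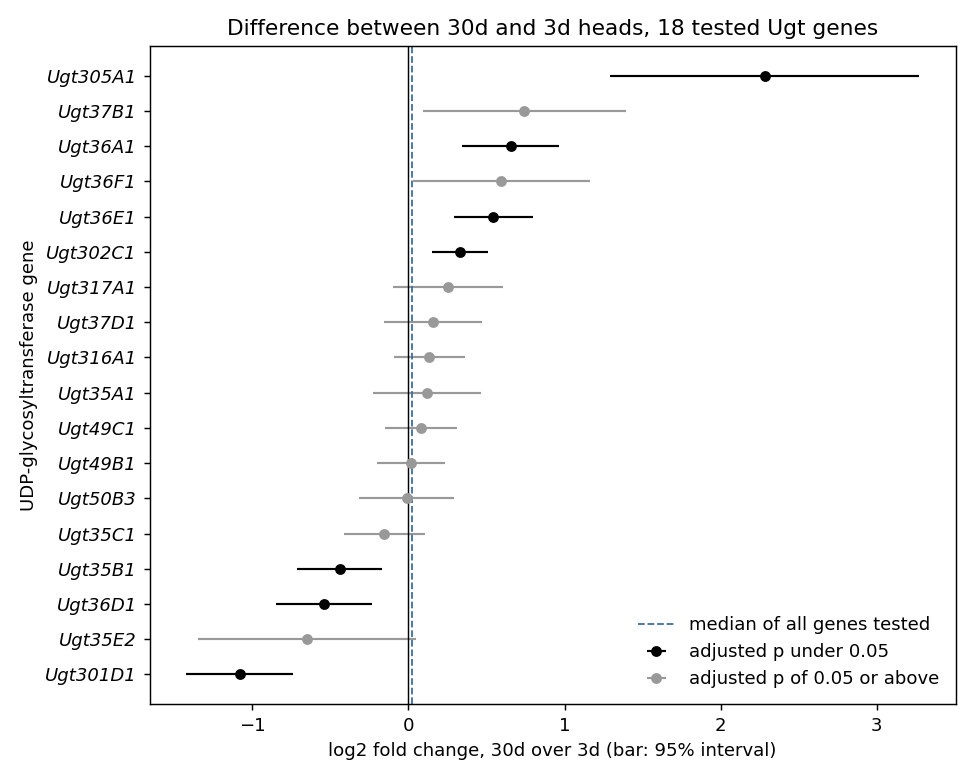
The log2 fold change of 30d over 3d heads is plotted for the 18 tested Ugt genes, with 95% intervals as bars, black where the adjusted p was under 0.05 and grey otherwise, and the median of all genes tested as a dashed line. The 7 black genes lie on both sides of 0, between -1.08 for *Ugt301D1* and 2.28 for *Ugt305A1*.

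The total RNA of the family did not differ beyond the spread between samples. The summed level of all 35 genes was 734, 653 and 701 CPM in the 30d samples and 784, 761 and 717 CPM in the 3d samples. The ranges of the ages overlapped, since the highest 30d sample lay above the lowest 3d sample. The means were 696 ± 40.5 CPM at 30d and 754 ± 33.9 CPM at 3d (SD, n = 3 each), a ratio of 0.923 with an exact two-sided permutation p of 0.2. With 3 samples of each age the smallest p that such a test allows is 0.1. Without *Ugt35B1*, the most abundant member, the sums were 536 ± 17.0 CPM at 30d and 537 ± 16.9 CPM at 3d (SD, n = 3 each).

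**Figure D2:**
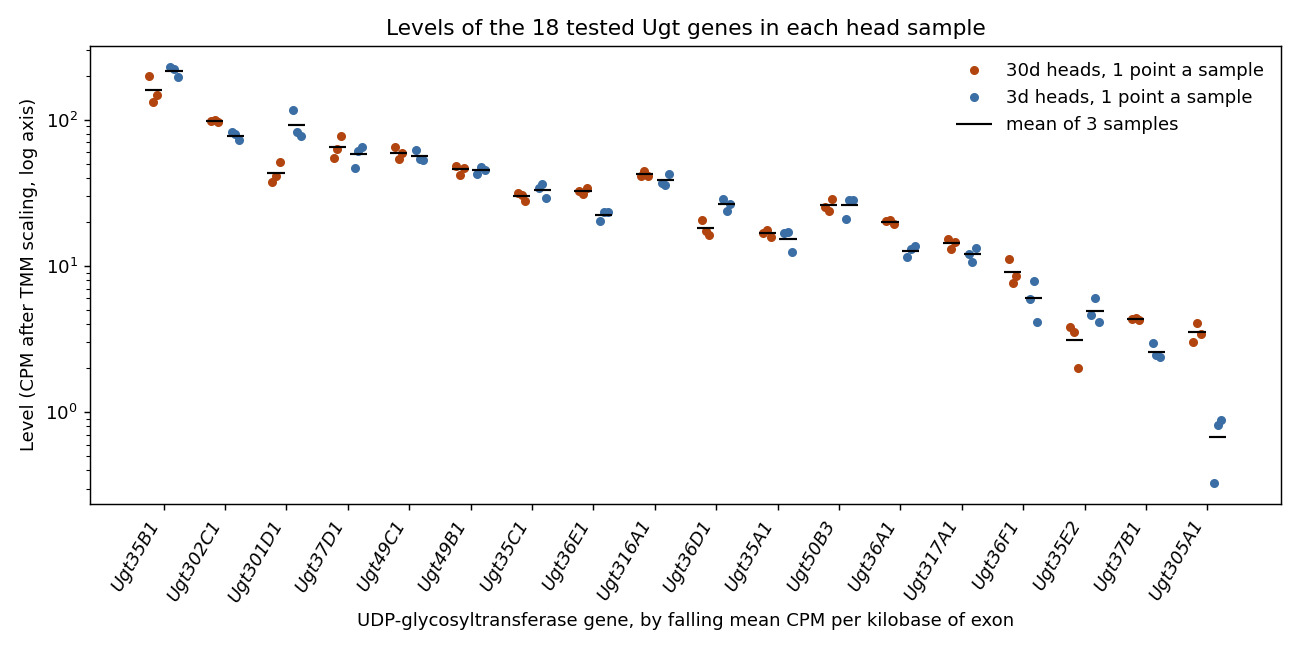
The level of each of the 18 tested genes is plotted in CPM on a log axis, with 1 point for each head sample, 30d left of 3d, and a black line at the mean of 3 samples. Genes are ordered by mean CPM per kilobase of exon. The samples of the ages separate for *Ugt302C1*, *Ugt301D1*, *Ugt36E1*, *Ugt36D1*, *Ugt36A1*, *Ugt35E2*, *Ugt37B1* and *Ugt305A1* and overlap for the other 10.

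To compare levels between genes, the mean CPM was divided by the length of a gene's exons. On this scale the most abundant member at both ages was *Ugt35B1*, at 95.5 CPM per kilobase at 30d and 130 at 3d. *Ugt35B1* is known for its preferential expression in the antenna. *Ugt302C1* was the second at 30d, with 49.2 CPM per kilobase, and the third at 3d, with 39.1. *Ugt301D1* was the sixth at 30d, with 21.9 CPM per kilobase, and the second at 3d, with 46.4. *Ugt37D1* (33.3 CPM per kilobase at 30d and 29.7 at 3d), *Ugt49C1* (31.3 and 29.6) and *Ugt49B1* (26.0 and 25.7) followed closely at both ages. The next was *Ugt35C1*, with 17.9 CPM per kilobase at 30d and 19.9 at 3d.

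The makeup of the family's RNA, taken as shares of the summed CPM per kilobase within a sample and so free of the scaling between libraries, separated the ages. *Ugt35B1*, *Ugt302C1* and *Ugt301D1* together made up 44.5 to 48.6% at 30d and 51.7 to 57.4% at 3d. The share of *Ugt301D1* was 4.92, 6.13 and 7.19% in the 30d samples and 14.2, 10.3 and 10.5% in the 3d samples. That of *Ugt302C1* was 12.8, 14.7 and 13.4% at 30d and 9.90, 9.98 and 9.70% at 3d. For all of these shares the samples of the ages lay apart, each with the smallest p an exact permutation test allows here, 0.1. The share of *Ugt35B1* also lay apart, but by less than 1 percentage point between its highest 30d sample and its lowest 3d sample. It was 30.9, 23.7 and 24.3% at 30d and 33.2, 33.3 and 31.5% at 3d. Shares within a sample are tied, as a lower share of some genes raises that of the others. Those of *Ugt49B1*, *Ugt49C1*, *Ugt317A1*, *Ugt35A1* and *Ugt36F1* lay apart too, though in CPM their ages overlapped. Their log2 fold changes were 0.02, 0.08, 0.25, 0.12 and 0.60, and none passed the threshold.

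**Figure D3:**
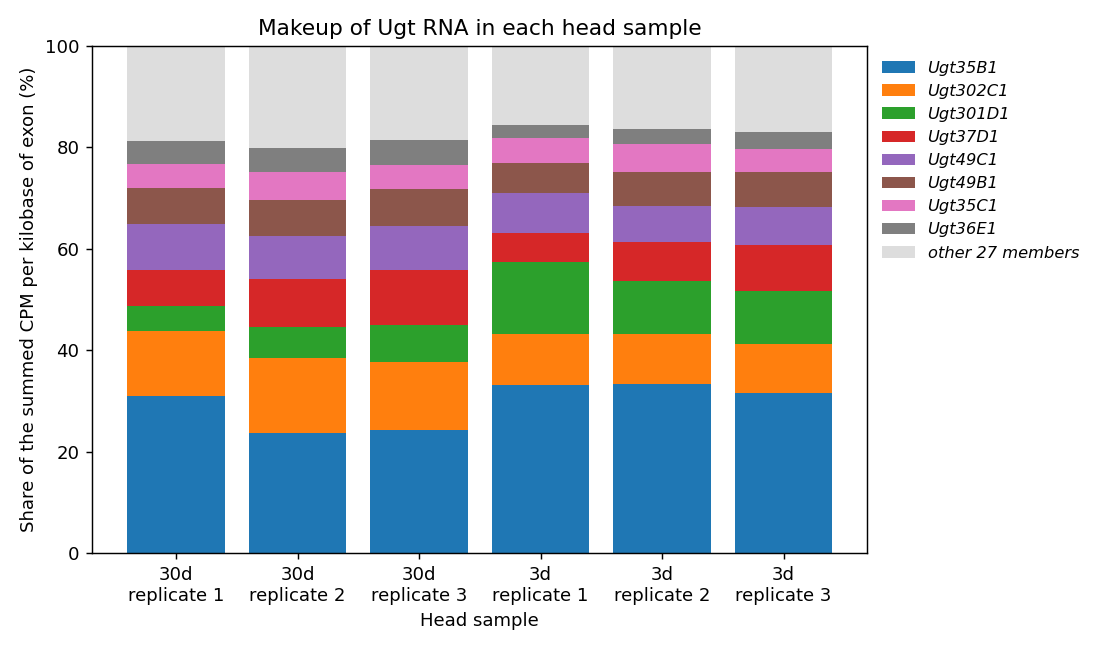
Each bar is 1 head sample, 30d left of 3d, and its colours give the share of the summed CPM per kilobase of exon, in percent, held by the 8 most abundant Ugt genes, with the other 27 members in pale grey. The 8 genes hold 79.9 to 81.4% at 30d and 83.0 to 84.4% at 3d, and the green band of *Ugt301D1* is narrower in every 30d sample than in every 3d sample.

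Among the genes that fell, *Ugt301D1* fell the furthest. It is the only Ugt301 gene and lies on the plus strand of chromosome 2L, from 18509560 to 18513512 of the dm6 assembly. It had 37.6, 41.0 and 51.8 CPM in the 30d samples, against 117, 81.9 and 77.6 CPM in the 3d samples. Every 30d sample lay below every 3d sample, and replicate 1 of 3d stood well above the other 3d samples. The means were 43.5 ± 7.40 CPM at 30d and 92.2 ± 21.6 CPM at 3d (SD, n = 3 each), which gave a log2 fold change of -1.08 (SE 0.16, adjusted p = 0.000356). Without replicate 1 of 3d the value was -0.88, with an edgeR adjusted p of 0.000411. The same sample was the highest in summed muscle markers, at 3245 CPM, and all 4 tested muscle markers fell at 30d. It was also the highest in summed neuron and glia markers, at 4553 and 3782 CPM, and both sums were lower in every 30d sample. The part of muscle, neuronal or glial RNA in the difference of *Ugt301D1* was not tested.

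*Ugt35B1*, which holds the largest number of the family's reads, fell by less. It lies on the minus strand of chromosome 3R, from 11168503 to 11170246. Its levels were 199, 133 and 147 CPM at 30d and 230, 223 and 197 CPM at 3d. Replicate 1 of 30d lay between the 3d samples, so the ages overlapped. The means were 160 ± 34.6 CPM at 30d and 217 ± 17.5 CPM at 3d (SD, n = 3 each), which gave a log2 fold change of -0.44 (SE 0.13, edgeR adjusted p = 0.0184). The call was lost in 4 of the 6 fits that left out a sample: the log2 fold change was -0.32 without replicate 2 of 30d (adjusted p = 0.0914), -0.38 without replicate 3 of 30d (0.0717), -0.40 without replicate 1 of 3d (0.0505) and -0.42 without replicate 2 of 3d (0.0601). Of the 6 markers of antennal support cells and olfactory neurons, 3 fell at 30d, the odorant-binding protein genes *lush* (log2 fold change -0.49), *Obp83a* (-0.74) and *Obp28a* (-0.67), while the olfactory co-receptor gene *Orco* had -0.28 and an adjusted p of 0.118. *Obp19d*, also an odorant-binding protein gene and the most abundant of the 6, had 2334 ± 224 CPM at 30d and 2000 ± 291 CPM at 3d (SD, n = 3 each; log2 fold change 0.22, edgeR adjusted p = 0.164). It made up most of the summed level of the 6, which was 2543 to 3110 CPM at 30d and 2289 to 3091 CPM at 3d. The part of antennal RNA in the difference of *Ugt35B1* was not tested.

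*Ugt36D1*, on the plus strand of chromosome 2L from 18823548 to 18826716, had 20.7, 17.2 and 16.3 CPM at 30d and 28.9, 23.8 and 26.7 CPM at 3d. All 30d samples lay below the 3d samples. The difference was -0.54 on the log2 scale (SE 0.14, edgeR adjusted p = 0.0118), with means of 18.1 ± 2.32 CPM at 30d and 26.4 ± 2.58 CPM at 3d (SD, n = 3 each). It stayed past the threshold in all 6 fits that left out a sample, but not under DESeq2's Wald test (adjusted p = 0.0737).

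Of the genes that rose, *Ugt36E1* is known from olfactory receptor neurons, where it has been tied to the discrimination of sex pheromones. It lies on the plus strand of chromosome 2L, from 18826770 to 18829059. It had 32.4, 31.2 and 34.3 CPM at 30d and 20.4, 23.2 and 23.4 CPM at 3d, with a clear gap between the ages. The means were 32.6 ± 1.59 CPM at 30d and 22.3 ± 1.70 CPM at 3d (SD, n = 3 each), which gave a log2 fold change of 0.54 (SE 0.12, edgeR adjusted p = 0.00386). *Ugt36E1* and *Ugt301D1* were past the threshold under all 13 alternatives. Of the neuron markers 4 of 5 fell at 30d, and of the antennal markers 3 of 6, while none of either list rose past the threshold. The part of neuronal or antennal RNA in the difference of *Ugt36E1* was not tested.

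*Ugt36A1*, described earlier as Dorothy, is known as a marker of the pericardial nephrocytes and of the larval blood-forming organ. It lies on the plus strand of chromosome 2L, from 3619097 to 3621573. Its levels were 20.4, 20.5 and 19.5 CPM at 30d and 11.5, 13.1 and 13.6 CPM at 3d. The 30d samples agreed closely and all lay above 3d. The means were 20.1 ± 0.588 CPM at 30d and 12.7 ± 1.11 CPM at 3d (SD, n = 3 each), and the log2 fold change was 0.65 (SE 0.14, edgeR adjusted p = 0.00436). Of its 2303 exon bases, 400 (17.4%) are also exon of *CG15418* on the opposite strand, and the counting ignored strand, so reads within the shared bases cannot be assigned to either gene. *CG15418* had 3 reads in all at 30d and 3 at 3d, and the part of the overlap in the difference was not tested. The call was lost under DESeq2 (adjusted p = 0.0604). Among 4 hemocyte markers, *Hml* and *NimC1* rose and *Pxn* fell, and their sum was 532 to 619 CPM at 30d and 516 to 523 CPM at 3d. The part of blood cells in the difference of *Ugt36A1* was not tested.

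*Ugt302C1*, the second most abundant member at 30d, rose by the smallest amount of the 4. Its place is chromosome 3R, plus strand, from 11157098 to 11159744. It had 98.1, 99.0 and 97.0 CPM at 30d and 81.8, 79.7 and 72.3 CPM at 3d. The ages did not overlap, and the 30d samples lay close to each other. The means were 98.0 ± 1.01 CPM at 30d and 78.0 ± 4.99 CPM at 3d (SD, n = 3 each), which gave a log2 fold change of 0.33 (SE 0.08, edgeR adjusted p = 0.00910). This call was also lost under DESeq2 (adjusted p = 0.0612).

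*Ugt305A1* had the largest fold difference of the 18 and the fewest reads. Its place is chromosome 3L, plus strand, from 4059770 to 4061923. It had 11, 15 and 12 reads in the 30d samples and 1, 3 and 3 reads in the 3d samples, or 3.51 ± 0.557 CPM at 30d and 0.679 ± 0.306 CPM at 3d (SD, n = 3 each). The ages lay far apart for so rare an RNA. The log2 fold change was 2.28 (SE 0.46, edgeR adjusted p = 0.00245), and it stayed past the threshold in all 6 fits that left out a sample. It entered the test only through its 30d reads. With all its 3d samples below the filter, it had to be higher at 30d to be tested at all.

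The other 11 tested genes did not pass. The test left room for changes of the size seen above in several of them, and their intervals are given for that reason. *Ugt35C1*, known also as Ugt86Dd and for its part in nicotine resistance, had 31.3, 30.6 and 27.8 CPM at 30d and 34.2, 36.6 and 29.0 CPM at 3d, and a log2 fold change of -0.15 (95% interval -0.41 to 0.10). *Ugt49B1* had 47.9, 42.1 and 46.9 CPM at 30d and 42.4, 47.5 and 45.3 CPM at 3d, and 0.02 on the log2 scale (-0.20 to 0.23). *Ugt49C1* had 65.1, 53.9 and 59.2 CPM at 30d and 61.8, 53.5 and 53.3 CPM at 3d, and 0.08 (-0.15 to 0.31). All of these genes overlapped between the ages. *Ugt37D1* had 54.5, 62.6 and 77.8 CPM at 30d and 47.0, 61.5 and 65.5 CPM at 3d, and 0.16 (-0.15 to 0.47). *Ugt316A1* had 41.4, 44.3 and 40.9 CPM at 30d and 36.8, 36.1 and 42.7 CPM at 3d, and 0.13 (-0.09 to 0.36). *Ugt50B3* had 25.3, 23.8 and 28.6 CPM at 30d and 21.0, 28.4 and 28.5 CPM at 3d, and -0.01 (-0.32 to 0.29). In each of these the spread within an age was larger than the difference between the means, except in *Ugt316A1*, whose 30d mean of 42.2 CPM was 1 SD of the 3d samples above their mean of 38.5 ± 3.63 CPM.

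Less abundant genes were less tightly bounded. *Ugt35A1* had 16.9, 17.5 and 15.7 CPM at 30d and 16.8, 16.9 and 12.4 CPM at 3d. Its log2 fold change was 0.12 (95% interval -0.22 to 0.47). *Ugt317A1* had 15.3, 13.1 and 14.6 CPM at 30d and 12.2, 10.7 and 13.3 CPM at 3d, and 0.25 (-0.10 to 0.60). Both genes overlapped between the ages. *Ugt36F1* had 11.2, 7.66 and 8.58 CPM at 30d and 5.91, 7.92 and 4.15 CPM at 3d, and 0.60 (0.03 to 1.16, edgeR adjusted p = 0.104). It overlapped because replicate 2 of 3d exceeded replicate 2 of 30d, and without that 3d sample the value was 0.87, with an adjusted p of 0.0489. *Ugt37B1* had 16, 16 and 15 reads at 30d and 9, 9 and 8 reads at 3d, and 0.74 (0.09 to 1.39, adjusted p = 0.0832). *Ugt35E2* had 14, 13 and 7 reads at 30d and 14, 22 and 14 reads at 3d, and -0.65 (-1.35 to 0.05, adjusted p = 0.147). *Ugt37B1* lay above 3d in every 30d sample and *Ugt35E2* below it in CPM, on few reads.

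A further 12 genes were too rare for the default filter. *Ugt37A3* had the most reads of them, with 2, 5 and 5 at 30d and 15, 8 and 8 at 3d, which did not overlap. In the fit without a filter it had a log2 fold change of -1.46 (SE 0.52, edgeR adjusted p = 0.0254). *Ugt302E1* had 2, 1 and 3 reads at 30d and none at 3d. Its 30d mean was 1.88 times the limit of 3 counts over the 3d samples. That value leaves out the error of its own 6 reads, so it is no lower bound. In the fit without a filter the difference did not pass (edgeR adjusted p = 0.0912). *Ugt304A1* had 3, 0 and 1 reads at 30d and none at 3d, and the ages overlapped. The rest differed by few reads. *Ugt302K1* had 10 reads in all at 30d and 14 at 3d. Those with more reads at 30d were *Ugt303A1*, with 5 reads at 30d and 3 at 3d, and *Ugt37C1*, with 3 at 30d and 1 at 3d. Those with fewer were *Ugt35E1* (2 at 30d and 6 at 3d), *Ugt37A1* (2 at 30d and 5 at 3d), *Ugt37E1* (3 at 30d and 4 at 3d), *Ugt37C2* (2 at 30d and 3 at 3d) and *Ugt303B3* (0 at 30d and 3 at 3d), and *Ugt307A1* had 1 read at each age. *Ugt37A2*, *Ugt49B2*, *Ugt303B1*, *Ugt303B2* and *Ugt35D1* had no read in any sample. A count of 0 over the samples of an age allows a level of up to 0.277 CPM at 30d and 0.298 CPM at 3d, for counting error only, so these genes were not detectable at this depth.

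By the number in the symbol, all 4 members of Ugt36 were tested, with *Ugt36A1* and *Ugt36E1* higher, *Ugt36D1* lower and *Ugt36F1* past neither way. Of 8 Ugt37 genes, 2 were tested and 0 passed, with adjusted p-values from edgeR of 0.0832 for *Ugt37B1* and 0.439 for *Ugt37D1*, of which the unadjusted p of *Ugt37B1* alone was under 0.05 (0.0297). Of 6 Ugt35 genes, 4 were tested and only *Ugt35B1* passed, lower at 30d. Ugt302 had 3 members with *Ugt302C1* alone tested, both tested genes of the 3 in Ugt49 missed the threshold, and none of the 4 Ugt303 genes had enough reads. *Ugt301D1*, *Ugt305A1*, *Ugt316A1*, *Ugt317A1*, *Ugt50B3*, *Ugt304A1* and *Ugt307A1* are each the only member with their number. Over all genes tested 30.4% passed in either direction, and whether any of these groups differs from that share was not tested.

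The positions of the genes, which the symbol rule did not use, showed that much of the family lies in clusters. Chromosome 3R holds 17 of the genes, 2L holds 11, 2R holds 5 and 3L holds 2. With genes joined where they lie within 20 kb of each other, 22 fell into 6 clusters and 13 stood alone. Of the clustered genes 10 were tested, and of the single ones 8. The largest cluster has 9 genes in 26.9 kb of chromosome 3R, from 11151026 to 11177910, and runs from *Ugt302K1* to *Ugt303A1*. The exons of a member cover between 1513 and 3316 bases, with a median of 1758.

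Neighbours did not move as 1 block in the cluster of 9 or in the Ugt36 cluster described below. *Ugt49B1* and *Ugt49C1*, 462 bases apart in another cluster, had log2 fold changes of 0.02 and 0.08, and neither passed. In the cluster of 9, *Ugt302C1* rose, *Ugt35B1* fell, *Ugt35E2* and *Ugt35A1* did not pass, and the other 5 were too rare. The call of *Ugt302C1* was lost under DESeq2, and *Ugt35B1* passed in only 2 of the 6 fits that left out a sample. The reads of *Ugt302C1* for each read of *Ugt35B1* were 0.493, 0.743 and 0.660 at 30d and 0.355, 0.357 and 0.367 at 3d. Such a ratio within a sample does not depend on how libraries are scaled. *Ugt35B1* and its neighbour *Ugt35A1* stood at 11.8, 7.61 and 9.35 reads to 1 at 30d and at 13.7, 13.2 and 15.8 reads to 1 at 3d. Between *Ugt302C1* and *Ugt35E1* lies *CG4757*, no member of the family, which had 354, 425 and 352 CPM at 30d and 124, 93.1 and 137 CPM at 3d. Its log2 fold change of 1.68 (SE 0.13, edgeR adjusted p = 4.31e-06) was larger than that of any tested Ugt gene of the cluster.

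In a cluster on chromosome 2L, 3 Ugt36 genes lie in a row on the plus strand within 9.72 kb. In it, 53 bases separate *Ugt36D1* from *Ugt36E1*. These direct neighbours went opposite ways. For each read of *Ugt36D1* there were 1.57, 1.81 and 2.11 reads of *Ugt36E1* at 30d and 0.705, 0.977 and 0.878 at 3d. Thus *Ugt36E1* had more reads than *Ugt36D1* in every 30d sample and fewer in every 3d sample, with an exact permutation p of 0.1, the smallest the design allows. The reads of *Ugt36F1* for each read of *Ugt36D1* were 0.539, 0.444 and 0.526 at 30d and 0.205, 0.333 and 0.156 at 3d, again without overlap. These ratios were chosen after the values of the genes were seen. *Ugt36E1* shares 2.52% of its exon bases with *CG17597*, which had 22.4 ± 2.91 CPM at 30d and 19.6 ± 0.852 CPM at 3d (SD, n = 3 each).

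**Figure D4:**
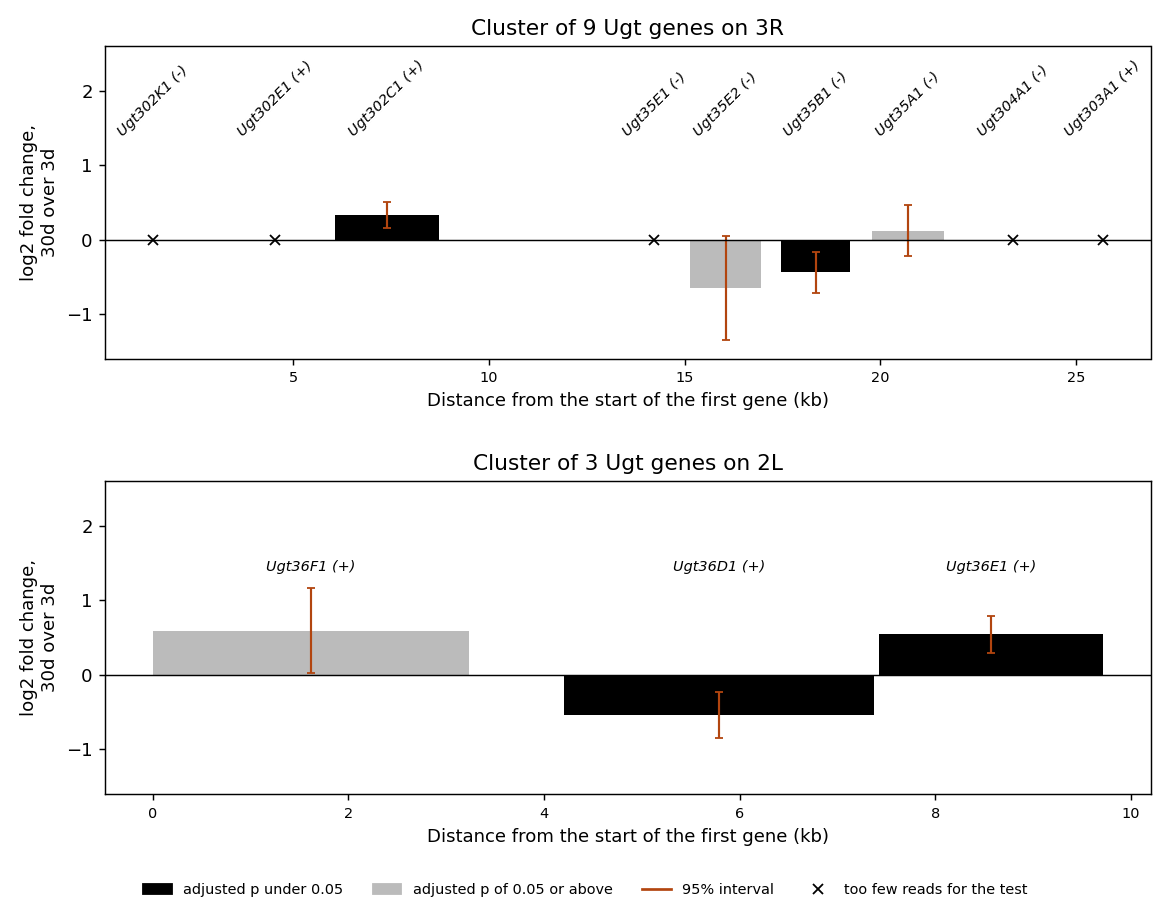
Ugt genes of 2 clusters are drawn to scale by their distance in kilobases from the start of the first gene, with the log2 fold change of 30d over 3d as the height and 95% intervals in orange. Black genes had an adjusted p under 0.05, grey ones did not pass, and crosses mark genes with too few reads. *Ugt302C1* at 0.33 and *Ugt35B1* at -0.44 lie in the same cluster, and *Ugt36D1* at -0.54 and *Ugt36E1* at 0.54 lie side by side.

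The enzymes need UDP-sugars, so the genes that supply them were read alongside. Of 11 genes for the making of UDP-sugars, all tested, 2 rose and 0 fell, where 14.4% of all genes tested were higher and 16.1% lower, which sets the list near the background. The median log2 fold change was 0.16, against 0.02 over all genes tested. *Galk*, the galactokinase gene, had 299 ± 52.6 CPM at 30d and 189 ± 12.8 CPM at 3d (SD, n = 3 each), and it rose by 0.66 on the log2 scale (edgeR adjusted p = 0.000995). *UGP*, which makes UDP-glucose from glucose 1-phosphate, had 0.24 and did not pass (adjusted p = 0.186). *sgl*, which oxidises UDP-glucose to UDP-glucuronate, stood at -0.02. Of 4 nucleotide-sugar carrier genes 3 were tested, with a median of -0.22, and *senju*, a UDP-galactose carrier gene, fell (log2 fold change -0.53, edgeR adjusted p = 0.0263). The carrier gene *frc* had no count in any sample. Whether this reflects absence of its RNA or the way reads were counted was not tested.

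Genes of the neighbouring steps were counted against the same 14.4% higher and 16.1% lower of all genes tested. Of the 4 genes of glycoside removal, 3 were tested with a median log2 fold change of 0.34, and *Gba1b*, a glucosylceramidase gene, rose (0.39, edgeR adjusted p = 0.0291). Of 4 sulfotransferase genes 2 were tested, and *St1* rose, with 65.0 ± 7.76 CPM at 30d and 39.0 ± 2.23 CPM at 3d (SD, n = 3 each; 0.73, edgeR adjusted p = 0.000460). All 4 regulators of the xenobiotic response were tested, with a median of 0.19. *cnc*, which encodes the fly Nrf2 factor that switches on detoxification genes, rose, with 319 ± 10.3 CPM at 30d and 230 ± 14.0 CPM at 3d (SD, n = 3 each; 0.47, edgeR adjusted p = 0.000709). *Keap1*, the inhibitor of that factor, had 0.26 and an adjusted p of 0.216. Among 5 efflux carrier genes for conjugates 4 were tested, with a median of 0.08, and the ABC transporter gene *Mrp4* rose (0.46, adjusted p = 0.0121).

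The other large detoxification families were counted in the same fit. For cytochrome P450 genes, symbols beginning with Cyp and a digit were taken. Of these 86 genes, 64 were tested, 23 rose and 5 fell, where 14.4% of all genes tested were higher and 16.1% lower. The median log2 fold change was 0.27. The symbol also took in *Cyp1* and *Cyp40*, which are not P450 genes, and the pseudogenes *Cyp6a15Psi* and *Cyp6t2Psi*, so these counts are not exactly those of the family. Of 35 glutathione S-transferase genes, 30 were tested, 12 rose and 4 fell, with a median of 0.29. Of the 18 tested Ugt genes 4 rose and 3 fell, with a median of 0.13. Whether the families differ was not tested. Head fat body markers, a tissue where such enzymes are known, summed to 5461 to 6828 CPM at 30d and 4988 to 5350 CPM at 3d, with 1 of 4 tested higher. Most of this sum was *apolpp*, with 6232 ± 754 CPM at 30d and 5133 ± 188 CPM at 3d (SD, n = 3 each). It did not pass (log2 fold change 0.28, edgeR adjusted p = 0.0648), and *fit* (-0.56) and *to* (-0.13) lay below 0 and did not pass. Gut markers, from another such tissue, summed to 30.2 to 62.7 CPM at 30d and 28.7 to 43.2 CPM at 3d, with 1 of 3 tested higher and 1 lower. Of the 4 Malpighian tubule markers, *Uro*, *salt* and *CG3285* averaged at most 0.191 CPM at either age, and *Irk3* had 29.6 ± 4.81 CPM at 30d and 27.6 ± 2.05 CPM at 3d (SD, n = 3 each). None of the testis markers was tested, with sums of at most 0.572 CPM at 30d and 3.26 CPM at 3d.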

How the data were processed

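Polyadenylated RNA was sequenced by the authors as single-end reads, which were aligned to dm6 by STAR. HTSeq then counted the reads inside exons, ignoring strand. What was deposited are raw counts by FlyBase identifier, with no normalization. 0 columns were left unused. The annotation release of the counting is not given in the sources used here. Positions and exon lengths came from an Ensembl annotation of the same assembly (17356 identifiers found), and all 35 members were found there.

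The 2 ages were compared by edgeR 4.0.16 under R 4.3.3 (default filter by age, minimum count 10; TMM; two-sided quasi-likelihood test; Benjamini-Hochberg threshold 0.05). The SE is the log2 fold change over the root of F. Replicates differed beyond counting error (chi-squared per degree of freedom 2.21 to 5.87). Reads carry no molecular identifiers, so limits from counts cover counting error only. Alternatives were RLE factors, library size alone, DESeq2 1.42.0, limma-voom 3.58.1, no filter, at least 10 counts in every sample, a replicate block and leaving out each sample. The test was checked on simulated data. Tables used Python 3.11.15 and pandas 2.3.3, and plots matplotlib 3.10.9.

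The members and lists were chosen with earlier results of these data known. All members are given, with full statistics for those past the threshold and values for the 3 most abundant per kilobase. From each pathway list, genes past the threshold are named, and *UGP*, *sgl*, *frc*, *Keap1* and the genes beside members were added after their values were seen. *Gfat1* was not analysed here. The values of 1 gene of the UDP-sugar list are not reported here.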

Additional observations from a re-analysis of the deposited data

How the results depend on the processing

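With each sample left out, 4 to 5 Ugt genes were higher and 2 to 3 lower at 30d, and their median log2 fold change was 0.12 to 0.13; over all genes 876 to 1205 were higher and 1003 to 1391 lower. DESeq2 called 2 Ugt genes higher and 2 lower, without *Ugt36A1*, *Ugt36D1* and *Ugt302C1*, and 738 genes higher over all; the cause was not tested. The median of the Ugt genes was 0.20 with library size alone, which moved the median of all genes by 0.0769 and the share of higher calls to 62%, against 47.2%. It was 0.040 with DESeq2 and 0.043 without a filter, both taken over the 30 members with any read. Of these 30, DESeq2 gave an adjusted p for 20. These medians are thus not over the same genes as the main one. Without a filter *Ugt37A3* was gained among the lower calls, and with at least 10 counts in every sample *Ugt305A1* was not tested. Genes near 0 changed sign and passed in none of these fits: *Ugt35A1* was -0.011 without replicate 3 of 3d, *Ugt49B1* ranged from -0.025 to 0.072 over the fits that left out a sample, and *Ugt50B3* was 0.064 with library size alone and ranged from -0.13 to 0.059 over the fits that left out a sample.

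The replicate numbers gave no clear pairing of the samples. Same-numbered samples had correlations of 0.143, 0.0167 and 0.0522, against -0.122 to 0.0970 for other pairs. Replicate 1 of each age correlated best with its own number, but not every sample did. With the replicate block the same 7 Ugt genes were called, 4 higher and 3 lower. Over all genes 1389 were called higher and 1518 lower with the block, against 1259 and 1410 without it. At this depth the rare genes have few reads, and 17 of the 35 had too few for the default filter.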
